A study of Mus musculus with 3 samples.

Results

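Gene-flanking Yap1 regions in the mouse heart are the regions that lay upstream or downstream of a listed gene, but at no promoter and in no gene body. They were chosen by annotation alone, from the authors' table of Yap1 regions: no promoter and no CpG island counted, a length under 8000 bp, at least 1 listed gene, and every listed gene classed as upstream or downstream. No signal value entered the choice. Of 22020 regions, 12241 had no promoter counted, 11656 of these had no CpG island, 8191 of these had a listed gene, 978 of these lay inside none of their listed genes, and 960 of these were under 8000 bp long. The longest region kept had 7919 bp and the shortest left out 8130 bp.

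The study mapped Yap1 by chromatin immunoprecipitation and sequencing (ChIP-seq), to compare the normal and the hypertrophied heart. All mice were wild-type male C57BL/6J. One group had a sham operation and the other transverse aortic constriction (TAC), which narrows the aorta and loads the left ventricle with pressure, and hearts were taken 7 days later. The series' design gives 3 mice for each operation, and there was 1 anti-Yap1 library for each, made from frozen heart tissue. The labels do not say whether a library pooled its mice, and give no age. There are therefore no replicates and no tests: higher and lower below describe these 2 libraries, not the operations, and a change in binding cannot be told apart from a change in the mix of heart cells. A pooled input library was not analysed here.

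Yap1 is a co-activator of the Hippo pathway that does not bind DNA itself. It is carried to chromatin mainly by TEAD proteins, and is held out of the nucleus when the Hippo kinases Lats1 and Lats2 phosphorylate it. Much of the binding of Yap1 and TEAD in other cell types has been mapped to enhancers away from promoters, often together with AP-1, and such distal sites can act on genes other than the nearest. In the heart Yap1 is known for driving cardiomyocyte proliferation before birth and for its part in the response to load and injury.

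Several of these regions held a RefSeq transcription start although the authors' table counted no promoter there. RefSeq start windows of 300 bases (250 before and 50 after a start, build GRCm38.p6, which is mm10) were laid over the regions. A whole window lay inside 39 of the 960 regions, with starts of 40 genes, of which 6 were protein-coding. Among the protein-coding genes, Fam78a and Sh3tc1 were themselves listed for their region. The average signal of these 39 had a median of 12.7 in sham and of 8.16 in TAC. Both libraries had a call at 24 of them (61.5%), against 34.6% of the flanking regions and 45.3% of all regions. A longer region can more readily hold a whole window, and the 39 were not matched on length. Flanking regions called in both libraries had a median length of 2682.5 bp, against 1846.5 bp with a call in sham only and 1340.5 bp in TAC only. Shown here are the window whose region had the highest average in sham, at the microtubule-associated protein gene Eml1, 2 windows at long non-coding RNA genes whose regions had ratios nearer to 0 than most, and a start of the cardiac LIM-domain gene Fhl2. They were picked after their values were seen. All read 5′ to 3′ on the gene's strand, and capitals mark matches to any of the 4 motifs described next.
Eml1, chr12:108370903-108371202, plus strand: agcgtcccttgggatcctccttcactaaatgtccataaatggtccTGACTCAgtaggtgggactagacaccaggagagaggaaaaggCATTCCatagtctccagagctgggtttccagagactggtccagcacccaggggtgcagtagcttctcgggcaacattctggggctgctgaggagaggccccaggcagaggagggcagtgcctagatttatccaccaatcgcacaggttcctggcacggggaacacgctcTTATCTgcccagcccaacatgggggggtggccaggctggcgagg
Gm51752, chr1:165717670-165717969, plus strand: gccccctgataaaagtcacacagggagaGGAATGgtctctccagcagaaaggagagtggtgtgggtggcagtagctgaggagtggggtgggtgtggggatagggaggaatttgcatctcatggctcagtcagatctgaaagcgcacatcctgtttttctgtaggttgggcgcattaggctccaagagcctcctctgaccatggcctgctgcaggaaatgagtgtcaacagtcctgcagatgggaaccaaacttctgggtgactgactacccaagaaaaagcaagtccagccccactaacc
A430078I02Rik, chr6:86480781-86481080, minus strand: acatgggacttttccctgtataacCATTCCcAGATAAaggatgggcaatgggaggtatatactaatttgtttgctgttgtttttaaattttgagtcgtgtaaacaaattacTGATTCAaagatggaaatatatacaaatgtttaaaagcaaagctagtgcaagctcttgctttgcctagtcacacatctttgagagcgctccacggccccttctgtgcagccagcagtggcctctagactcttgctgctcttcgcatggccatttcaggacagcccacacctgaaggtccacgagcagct
Fhl2, chr1:43196712-43197011, minus strand: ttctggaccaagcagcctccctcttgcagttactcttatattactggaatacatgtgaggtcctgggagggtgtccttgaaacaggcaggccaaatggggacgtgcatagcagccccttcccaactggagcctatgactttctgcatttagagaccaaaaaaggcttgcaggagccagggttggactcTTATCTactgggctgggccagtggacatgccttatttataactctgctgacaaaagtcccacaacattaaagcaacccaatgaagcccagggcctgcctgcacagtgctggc

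Both strands were searched for GGAATG, the core of the TEAD motif, and TGANTCA, which AP-1 proteins bind. The other motifs were AGATAA, bound by GATA factors, and AGGTCA, the repeat unit of many nuclear receptors. Each was counted by itself whether or not it overlapped another. With 1 window for each of the 39 regions, GGAATG was in 9 (23.1%, against 14.7% of all 32851 windows) and TGANTCA in 7 (17.9%, against 7.81%). AGGTCA was in 14 (35.9%, against 16.3%) and AGATAA in 4 (10.3%, against 11.2%). The windows were not matched on base composition, and a match is not a binding site. The Eml1 window held TEAD, AP-1 and GATA letters, as did that of A430078I02Rik. The region at the Eml1 window is listed for the neighbouring gene Cyp46a1, the gene of a cholesterol hydroxylase, and had an average signal of 19.0 in sham and 12.8 in TAC. The region at Gm51752 is listed for Rcsd1 and had 14.4 and 12.1. That at A430078I02Rik had 11.6 and 10.7 and a call in TAC only. The Fhl2 start lay in a region listed for the pseudogene Gm8210, with 14.0 in sham and 7.12 in TAC and a call in sham only. The average was higher in sham at all 4, as at 94.6% of all regions, while the maximum at the Eml1 region was 48 in both libraries.

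The position class was checked against RefSeq. The midpoint of 196 of the 960 regions (20.4%, 95% Wilson interval 17.99 to 23.1%) lay inside a RefSeq gene of any kind, and that of 89 inside a protein-coding gene, so for these the name holds in the authors' annotation but not in RefSeq. Regions with the midpoint inside a RefSeq gene had a median ratio of -0.55 and the other 764 of -0.53. Calls, positions and named regions were not redone without the 196. Some regions named below are among them, such as those listed for Snap47, Cyp46a1 and Rad51b. The ratio is log2((TAC + 1)/(sham + 1)) of the average signal, and a value of -1 is a little over 2-fold lower signal in TAC. Of the 1057 listed gene symbols, 964 matched RefSeq by symbol, 60 by synonym and 33 not at all. A protein-coding gene was listed for 819 regions. The other 141 listed none, and there the nearest RefSeq protein-coding gene was a median of 26826 bp from the midpoint.

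Most of these regions lay past the end of a gene. There were 761 downstream of every listed gene, 151 upstream and 48 downstream of one gene and upstream of another. Among regions listed for 1 gene, the 150 upstream ones had midpoints from -11782 to -8096 bp of the start (median -9882), and the 634 downstream ones from 3250 to 575897 bp (median 25198.5). The narrow upstream band follows from the authors' annotation, since nearer regions count as promoters and more distant ones have no listed gene. Downstream regions could lie directly past a gene end, so their larger number follows in part from the rule. Over the 891 downstream gene listings with the midpoint outside the RefSeq gene, it was a median of 4655 bp from the gene span. The 95th percentile was 10395.5 bp, and regions listed for several genes count more than once. A single gene was listed for 784 regions and 2 or more for 176. The most was 23 genes, which were Diap1 and the genes of the protocadherin gamma cluster, which encodes cell adhesion molecules. That region had 7.80 in sham and 5.63 in TAC.

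Average Yap1 signal at these regions was modest and lower in the TAC library at most of them. In sham the median was 9.65, with quartiles of 8.61 and 11.4. In TAC it was 6.79, with quartiles of 5.57 and 8.12. The medians over all regions were 10.6 and 7.46. The median ratio was -0.54 (quartiles -0.76 and -0.30), a signal 1.45-fold higher in sham on the scale with the pseudocount, and that over all regions was -0.54 too. A ratio below 0 was found for 891 of the 960 regions, against 94.6% of all regions. Read depth is unknown, and no source used here says how the authors scaled one library to the other. The shared shift cannot be told apart from a difference in depth or scaling.

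**Figure D1:**
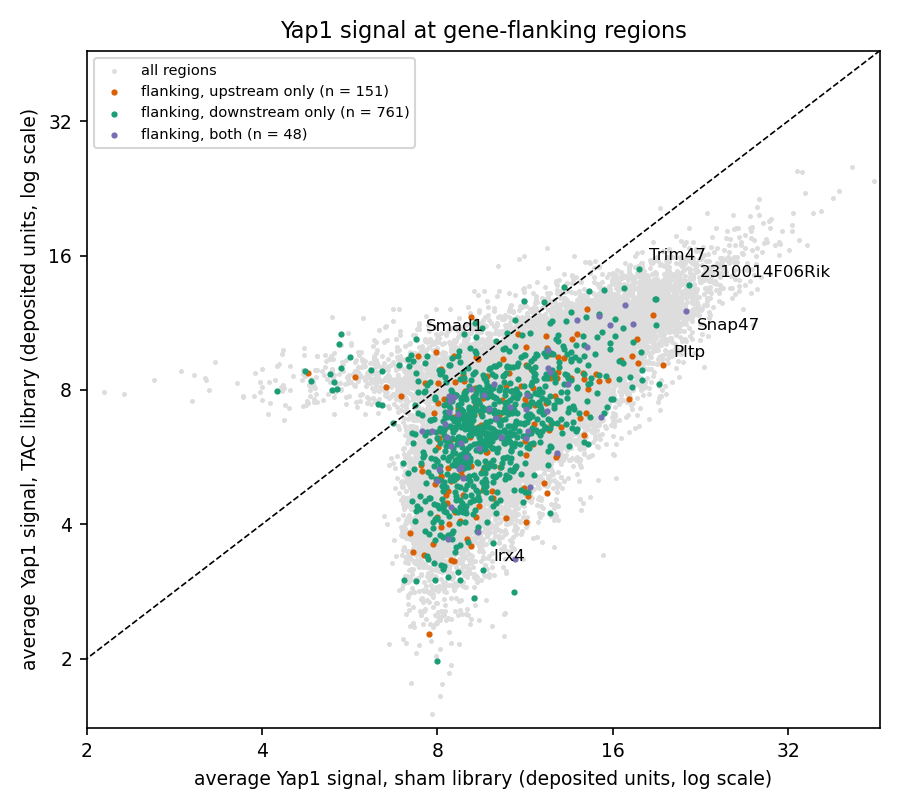
Average Yap1 signal of each region in the sham (horizontal) and TAC (vertical) library, in deposited units on log scales, with the 960 flanking regions coloured by side over all 22020 regions in grey; the dashed line marks equal signal. Most flanking regions lie below the line, at a median of 9.65 in sham and 6.79 in TAC, and the 3 sides overlap.

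Past a fixed size of 1.5-fold, the flanking regions had nearly the share of all regions on the lower side. At least 1.5-fold less signal in TAC was seen at 416 regions (43.3%, Wilson 40.2 to 46.5%), against 43.0% of all regions. At least 1.5-fold more was seen at 9 (0.94%), against 0.486%. Taken relative to the median of all regions, 25 were lower (2.60%, against 2.31%) and 59 higher (6.15%, 4.79 to 7.85%, against 4.42%). Of the 59 higher regions, 35 had a call in TAC only, and of the 25 lower ones 24 had a call in sham only. Those regions entered the table through the library in which they were high, so these shares depend in part on entry into the table. Which direction is the more frequent past this size thus depends on the scaling, with 416 lower and 9 higher as deposited but 25 lower and 59 higher on the relative scale. By maximum signal the relative counts were 95 lower and 92 higher, and the shares over all regions are not given for that measure.

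Call marks were less often shared between the libraries here than over all regions, and the flanking regions were also weaker. Both libraries had a call at 332 (34.6%, 31.6 to 37.6%, against 45.3% of all regions), sham alone at 584 (60.8%, against 51.3%) and TAC alone at 44 (4.58%, against 3.40%). In 5 classes of mean signal with equal numbers of all regions, the weakest held 26.6% of the flanking regions and the strongest 7.60%. Within a class the share called in both was close to that of the other regions, at 45.8% against 48.0% in the middle class, 75.9% against 70.6% in the next and 91.8% against 87.4% in the strongest. Median ratios within a class differed by at most 0.04. These differences were not tested.

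Among the region classes most like them, flanking regions lay between gene bodies and promoters. All these classes had no CpG island and a length under 8000 bp. The median ratio was -0.59 for 7017 regions inside genes, -0.57 for 3432 with no listed gene, -0.54 for the flanking regions and -0.51 for 2360 at promoters. The quartiles of each class contained the medians of all the others. Calls in both libraries followed another order, with 30.0% inside genes, 34.6% flanking, 36.7% with no listed gene and 41.3% at promoters.

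**Figure D2:**
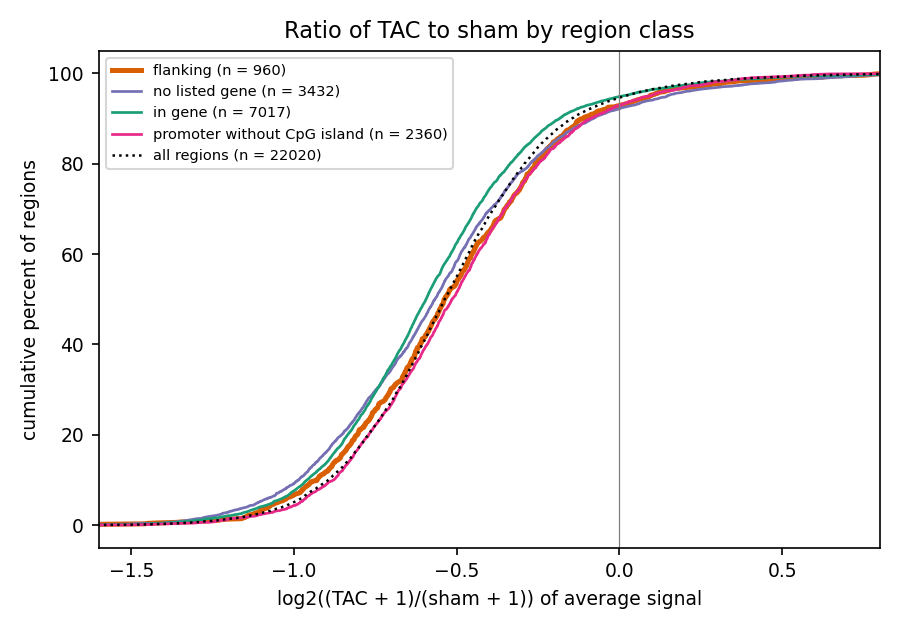
Cumulative percent of regions (vertical) by the log2 ratio of TAC to sham average signal (horizontal) for flanking regions, 3 other classes without CpG islands, and all regions. The curves run close together, with medians from -0.59 inside genes to -0.51 at promoters and -0.54 for flanking regions.

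Median values were close on either side of the gene. For upstream regions the median was 9.58 in sham, 7.00 in TAC and -0.56 for the ratio, and for downstream ones it was 9.65, 6.75 and -0.54. Regions between a gene end and a gene start had 9.93, 7.02 and -0.49. Relative to all regions, 9 of 151 upstream regions (5.96%) were at least 1.5-fold lower, against 15 of 761 (1.97%) downstream, where all regions had 2.31%. Among regions downstream of 1 gene, the median ratio was -0.61 for 74 regions under 10000 bp from the start, -0.52 for 177 up to 20000 bp, -0.54 for 206 up to 50000 bp, -0.49 for 89 up to 100000 bp and -0.58 for 88 beyond. It followed no order with distance.

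The strongest flanking region lay past the end of 2310014F06Rik, a gene whose promoter region is also that of a TEAD gene. It spans chromosome 7 from 112655404 to 112658016, where the average was 21.6 in sham against 13.7 in TAC, with maxima of 70 and 37. It was listed downstream of 2310014F06Rik, 23371 bp from its start. A promoter region that begins 19787 bp further on was listed for both 2310014F06Rik and Tead1, the gene of one of the proteins that carry Yap1 to DNA. The promoter region had 19.4 in sham and 10.1 in TAC, so in both libraries the distal region had the higher average of the pair. Its ratio was -0.62 and that of the promoter region -0.88.

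The next strongest regions in sham lay outside the gene lists described below, except that of F3. The region listed for Snap47, Jmjd4 and Zfp867 (chromosome 11, 59458202 to 59460134) had 21.4 in sham and 12.02 in TAC. That upstream of Pltp, which encodes the phospholipid transfer protein, had 19.5 and 9.10, with a maximum of 70 and 26 and a call in sham only. The region downstream of 2700070H01Rik had 19.2 and 8.26. The region past the end of F3, the tissue factor gene, had 19.0 and 11.2, on chromosome 3 from 121735264 to 121737345. Just above F3 in sham ranked the Cyp46a1 region at the Eml1 window, given above, with 19.0 and 12.8 (ratio -0.54). All of these were lower in TAC, with ratios from -1.13 to -0.54. By maximum signal the highest in sham after these were upstream of Bnip3, a mitophagy receptor gene, with 69 in sham and 46 in TAC, and downstream of Sh2d6, with 66 and 51.

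The ranking in the TAC library was led by a different set. The stronger of the regions downstream of Trim47, a ubiquitin ligase gene, was first with 15.0 in TAC and 17.7 in sham. It was called in TAC only although its average was higher in sham, while its maximum was higher in TAC (35 against 30). 2310014F06Rik was next, and Ino80c, the gene of a chromatin remodeller subunit, followed with 13.6 in TAC and 13.2 in sham. After it came Apod, the apolipoprotein D gene, with 13.5 and 16.8, the region listed for Igdcc3 and the small nuclear RNA gene Rnu5g with 13.4 and 15.4, and Sh2d6 with 13.3 and 14.6. Apart from 2310014F06Rik these regions had ratios from -0.29 to 0.04, all above the median of all regions. A ranking by TAC favours high ratios and a ranking by sham low ones, so this follows in part from the ranking. The Ino80c region had the higher average in TAC but the higher maximum in sham (57 against 49). Across the flanking regions the Spearman correlation between the libraries was 0.43, against 0.67 over all regions. Regions are not independent replicates, and the narrower range of signal here is part of that comparison.

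Higher average signal in TAC was seen at 69 flanking regions, with higher maximum signal as well at 43 of them. Among regions at or above the median strength of the flanking set, the highest ratio was at Smad1, which encodes a transducer of BMP signals. This region, on chromosome 8 from 79330601 to 79331914 and 68211 bp from the start, had 7.34 in sham and 10.4 in TAC (ratio 0.45), with maxima of 12 and 24 and a call in TAC only. The region upstream of Ace, the gene of angiotensin-converting enzyme, had 7.42 and 9.51 (0.32), with maxima of 13 and 20. The region downstream of Cxcr7, an atypical receptor for the chemokine CXCL12, had 7.67 and 9.54 (0.28), with maxima of 13 and 24. The region downstream of both Lmnb1, the lamin B1 gene, and March3, a ubiquitin ligase gene, had 7.26 and 9.29 (0.32), with maxima of 12 and 16. These 4 regions had a call in TAC only, so they entered the table through the library in which they were high. Of the other regions in this group, 3930402G23Rik had 7.12 and 9.40 (0.36) and that of LOC101056168 and D130062J21Rik 8.87 and 10.7 (0.24), both called in both libraries. Pigt (7.22 and 9.60), Trim56 (9.29 and 11.3) and LOC101056093 (7.94 and 9.75) were higher in TAC by the average but had the higher maximum in sham.

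The 9 regions at least 1.5-fold higher in TAC had from 4.25 to 5.67 in sham. All had a call in TAC only, so they too entered the table through the library in which they were high. They were listed for D7Ertd443e, Cnksr3, A630091E08Rik, Rngtt, Nfatc4, Itpripl2, Creb3l2, Slc10a7, and Cpne7 with Sult5a1. D7Ertd443e had 5.48 in sham and 10.7 in TAC (ratio 0.85). Nfatc4, the gene of a transcription factor activated by calcineurin, had 4.80 and 8.74 (0.75) in a region upstream of its start, with maxima of 9 and 15. With a pseudocount of 5, 0 of the 960 regions passed this size on the higher side.

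Among regions at or above the median strength of the flanking set, C630050I24Rik had the lowest ratio, with 12.5 in sham and 4.24 in TAC (-1.36). The region upstream of Ppm1k, which encodes a mitochondrial phosphatase that activates branched-chain amino acid oxidation, had 12.3 and 4.70 (-1.23). The region upstream of Ppara, the gene of a nuclear receptor for fatty acids, had 12.2 and 4.96 (-1.15), with maxima of 28 and 12. Scd1, the gene of stearoyl-CoA desaturase, had 14.5 and 6.04 (-1.14), with maxima of 35 and 10, in a region past the gene's end. All 4 had a call in sham only. The ETS factor gene Etv3 had 14.3 and 6.12 (-1.10), and Gm10240, Fam174b, 2310016G11Rik and Gm5423 ranged from -1.07 to -1.05. Over all 960 regions the lowest ratio was at a region 575897 bp from the start of Sox6, a transcription factor gene, with 10.8 in sham and 2.82 in TAC (-1.63).

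Genes of cardiac function were followed through 18 gene lists with 411 different genes. A flanking region was listed for 53 of them, over 66 regions with a median ratio of -0.56, and 34 of the 66 lay below the median of all regions. Because some regions are listed for several genes, and the lists overlap, the counts below are not independent. On the fixed size, 43.0% of all regions were at least 1.5-fold lower in TAC, and the counts of lower regions below stand against that share.

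Flanking regions of YAP and TEAD targets had higher median signal than the whole flanking set, and Ankrd1 held regions of opposite direction. They were listed for 4 of 30 genes, over 5 regions whose median was 12.9 in sham, 11.2 in TAC and -0.30 for the ratio. At least 1.5-fold lower signal was seen at 2. The medians of the whole flanking set were 9.65 in sham and 6.79 in TAC. The upstream region of Ankrd1 was below the former, and its downstream region below the latter. Ankrd1 encodes a stress-induced titin-associated repeat protein and is a much-used Yap1 target. Its upstream region, 9515 bp before the start on chromosome 19 from 36128611 to 36130107, had 9.13 in sham and 11.7 in TAC (ratio 0.32) and a call in both libraries. The maxima there were 19 and 20, nearly equal. Its downstream region, 8656 bp from the start and shared with Rpp30, had 10.6 and 5.11 (-0.93), with maxima of 35 and 11. The promoter region of Ankrd1 lay between these ratios, with 13.1 and 8.82 (-0.52). F3 is given above. Nuak2, a kinase gene, had 13.3 and 11.4 at its flanking region, and Gadd45b, a stress-response gene, 12.9 and 10.3. All but the upstream Ankrd1 region were lower in TAC.

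**Figure D3:**
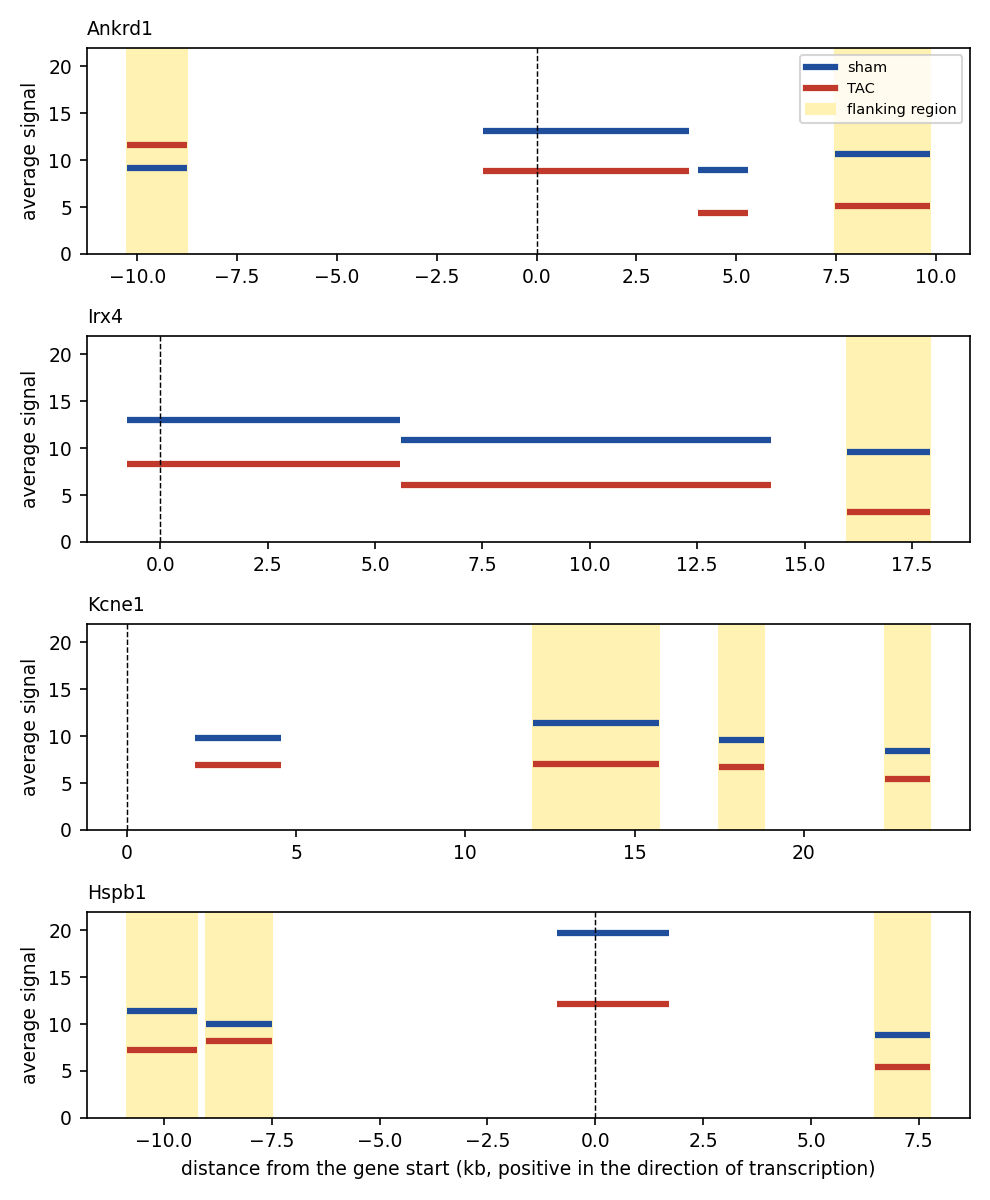
Average Yap1 signal (vertical, deposited units) of every region listed for Ankrd1, Irx4, Kcne1 and Hspb1, drawn as bars over its length at its distance from the gene start (horizontal, kb); blue is sham, red is TAC and yellow marks flanking regions. TAC is the lower bar at every region but the upstream region of Ankrd1, with 9.13 in sham and 11.7 in TAC.

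The calcium handling and ion channel list had flanking regions at 6 of its 32 genes, over 7 regions whose median was 11.3 in sham, 6.57 in TAC and -0.74 for the ratio. At least 1.5-fold lower signal was seen at 5. All 7 had a ratio below 0, as did 94.6% of all regions. Gja5, the gene of the conduction-system connexin, had 11.6 and 6.57, Atp2a2, the gene of the sarcoplasmic calcium pump, 11.3 and 7.38, and Kcnq1, a potassium channel gene, 9.39 and 4.74. Kcnj2 and Kcnj5, inward rectifier genes, had ratios of -0.64 and -0.45.

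Cardiac transcription factor genes had weaker flanking regions, and most lay below the median of all regions. They were listed for 9 of 26 genes, over 10 regions whose median was 9.31 in sham, 5.68 in TAC and -0.60 for the ratio. The median of all regions was above 8 of them, and 5 were at least 1.5-fold lower. Irx4, a homeobox gene of the ventricle, had 9.58 and 3.17 (-1.34) in a region 16950 bp from its start, with maxima of 17 and 7, whereas its promoter region had 13.05 and 8.28 (-0.60). Ppara is given above. Mef2a had 11.6 and 7.51, Gata6 10.7 and 5.88, and Nkx2-5 9.74 and 6.28. Hand2 had 8.95 and 7.62 (-0.21), the highest ratio of the list. The region of Hand2 also held the start window of Gm34030. Hopx (-0.66), Irx3 (-0.43) and the pair of regions of Ppargc1a (-0.63 and -0.57) were in between.

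Sarcomere and Z-disc genes had 11 flanking regions, listed for 7 of 37 genes. The median over them was 9.13 in sham, 6.14 in TAC and -0.62 for the ratio, and 6 were at least 1.5-fold lower. Lmod2, which encodes a nucleator of thin filaments, had 14.3 and 8.44 upstream of its start. Fhl2 had 11.3 and 6.14 at the region listed as upstream and 6.98 and 5.49 at a downstream one. In RefSeq the midpoint of the former lay inside Fhl2. Tpm1, the tropomyosin gene, had 11.5 and 7.05 and a second region with 8.44 and 5.68. Tnnt2, the gene of cardiac troponin T, was nearest to equal with 8.44 and 7.76 (-0.11), and Mybpc3, the gene of the cardiac myosin-binding protein, had 9.73 and 8.22 (-0.22). The regions of Myl3, a ventricular light chain gene, were at -0.62 and -0.65. The list also holds both regions of Ankrd1.

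**Figure D4:**
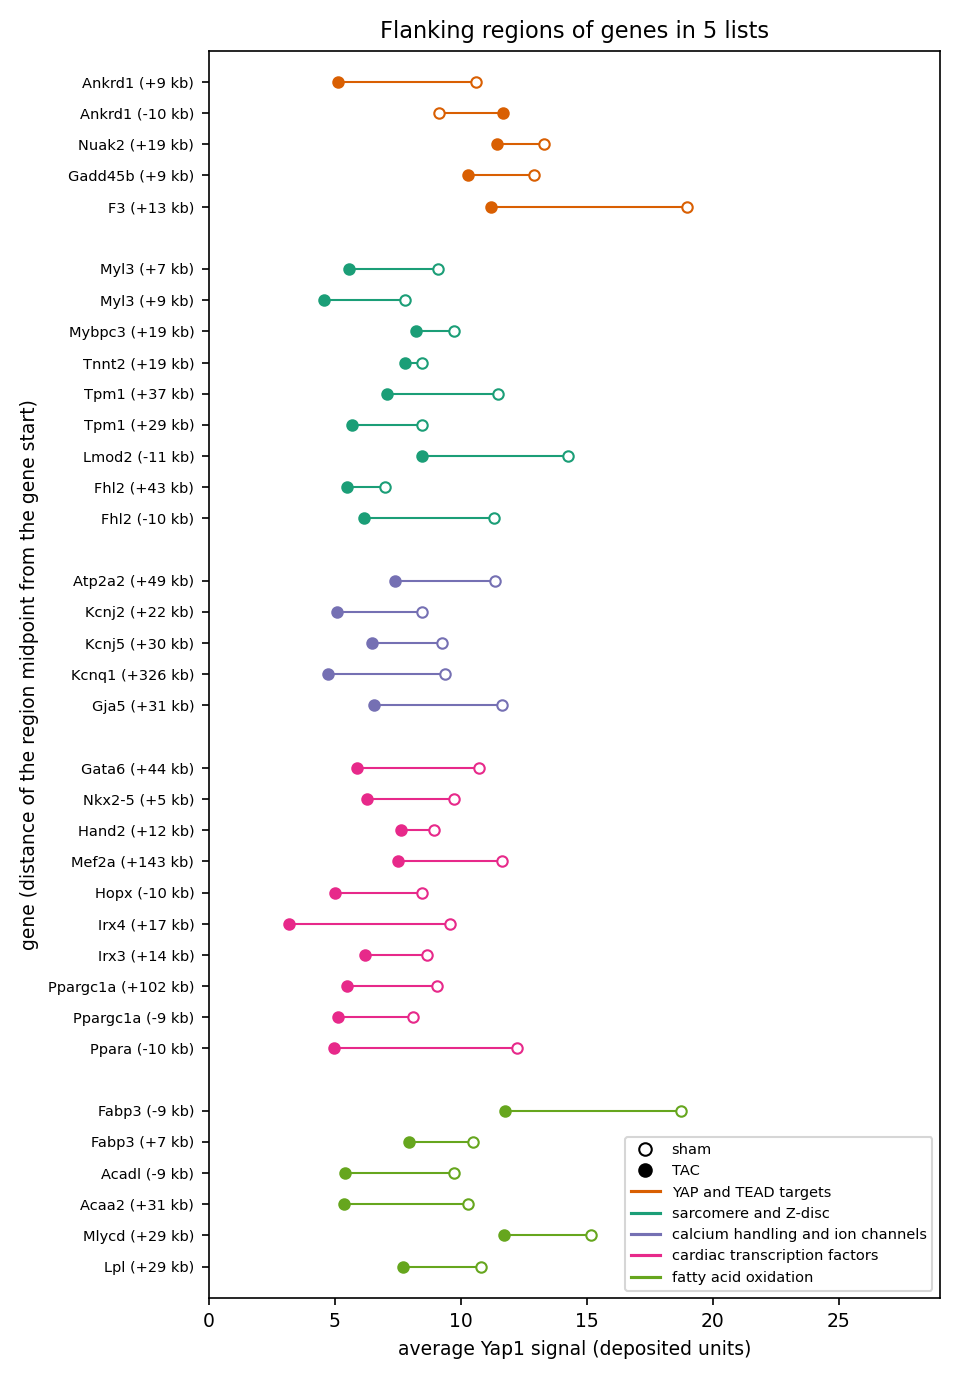
Average Yap1 signal (horizontal, deposited units) in sham (open) and TAC (filled) at the flanking regions of genes in 5 lists, with the distance of its midpoint from the gene start. All regions but the upstream one of Ankrd1 were lower in TAC, from Irx4 with 9.58 and 3.17 to Tnnt2 with 8.44 and 7.76.

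Metabolic genes had flanking regions on both sides of the median of all regions. Fatty acid oxidation genes had 6 regions for 5 of 29 genes, with a median of 10.6 in sham, 7.83 in TAC, a median ratio of -0.53 and 3 at least 1.5-fold lower. Fabp3, the heart fatty acid binding protein gene, had the strongest of them upstream of its start, with 18.8 and 11.8 (-0.63), more in both libraries than its promoter region with 17.4 and 9.98. Mlycd, which encodes malonyl-CoA decarboxylase, had 15.2 and 11.7 (-0.35), Lpl, the lipoprotein lipase gene, 10.8 and 7.71, and Acaa2, a thiolase gene, 10.3 and 5.38 (-0.82). The Mlycd region was also listed upstream of Osgin1 and held start windows of Gm32006. Glucose uptake and glycolysis genes had 4 regions for 3 of 26 genes, all above the median of all regions, from Eno1, an enolase gene, with 16.2 and 11.5 (-0.46) and a second region at -0.37, to Pfkm (-0.44) and Ldhb (-0.39). None of these 4 was at least 1.5-fold lower.

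AP-1 and immediate early genes had 6 regions for 4 of 30 genes, with medians of 9.42 and 6.29 and a median ratio of -0.58, and 3 were at least 1.5-fold lower. Klf10, a TGF-beta-inducible factor gene, had 7.34 in sham against 8.74 in TAC (0.22) in one region and 8.87 and 4.39 (-0.87) in another 2752 bp away, each called only in the library where it was higher. Dusp1, a phosphatase gene that limits MAP kinases, had 11.0 and 9.19 (-0.24) and 10.7 and 6.64 (-0.61). By maximum signal the order of this pair was the opposite, with 29 and 13 at the first and 20 and 13 at the second. Klf2 had 9.98 and 5.94, and Ier5 was at -0.56. Glucocorticoid and circadian genes had 5 regions for 4 of 22 genes, with a median ratio of -0.65 and 3 at least 1.5-fold lower. Zbtb16 had 13.1 and 10.05, the stronger region of Bhlhe41 13.03 and 7.91, Per1 12.4 and 8.97, and Tef 9.70 and 4.73 (-0.90). Hypertrophic and fetal cardiac genes had 5 regions for 3 of 18 genes, with a median ratio of -0.11 and 2 at least 1.5-fold lower. Apart from Ankrd1 these were the metallothionein gene Mt1, with 10.6 and 9.77 and 8.88 and 8.50 at its regions, and Acta2, the smooth muscle actin gene, with 11.4 and 5.72 (-0.88). Both Mt1 regions had a lower average but a higher maximum in TAC (26 against 24, and 20 against 16).

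The counts of signalling, matrix and marker genes with a flanking region stand beside 53 of 411 over all lists. TGF-beta and BMP signalling genes had 3 for 3 of 29 genes, those of Smad1, Smad7 with 11.0 and 7.68 (-0.46) and Acvrl1 with 8.84 and 6.22 (-0.45), and none was at least 1.5-fold lower. Growth factor and PI3K signalling genes had 3 for 2 of 28 genes and 1 at least 1.5-fold lower. Vegfa, the gene of the main angiogenic factor, had 8.94 and 4.31 (-0.91) in one region and 8.48 and 7.93 (-0.09) in another, and Igf1r had a ratio of -0.34. Matrix and fibrosis genes had 2 for 2 of 30 genes, Sparc with 9.33 and 9.50 (0.02) upstream of its start and Col4a2 with 9.13 and 6.87 (-0.36). By maximum signal Sparc was lower in TAC (18 against 20). Endothelial markers had 2 for 2 of 19, Sox18 with 9.58 and 7.98 (-0.24) and Kdr with 8.58 and 5.77 (-0.50). Smooth muscle and pericyte markers had 2 for 2 of 13, Acta2 and Notch3, the latter with 11.2 and 6.32 (-0.74), and both were at least 1.5-fold lower. Fibroblast markers (14 genes), macrophage and leukocyte markers (17), hepatocyte genes (15) and neuronal genes (14) had 0 flanking regions. Of these genes, 8, 5, 6 and 3 had a region elsewhere in the table.

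Of the 1057 listed genes, 110 had at least 2 flanking regions and 7 had 3. Regardless of gene, 164 of the 960 regions lay within 1000 bp of another region of any class and 379 within 5000 bp. Kcne1, which encodes the beta subunit of the slow delayed rectifier potassium channel, had 3 downstream regions, with 11.4, 9.63 and 8.46 in sham and 7.01, 6.68 and 5.42 in TAC. Their ratios of -0.63, -0.47 and -0.56 lay close together. Hspb1, the gene of a small heat shock protein, had 2 upstream regions shared with Srrm3, with 11.4 and 7.26 and with 10.02 and 8.25, and a downstream one with 8.89 and 5.46. All were weaker than its promoter region, with 19.8 and 12.1. Of the other genes with 3, the regions of Dhx37 were at -0.47, -0.46 and -0.62, those of Gm8210 at -0.68, -0.89 and -1.25, those of 2310044G17Rik from -0.72 to -0.26, those of Zdhhc22 from -1.10 to -0.26 and those of Fam179a from -1.28 to -0.19. The Gm8210 regions lie at the Fhl2 locus.

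Over the 110 genes with at least 2 flanking regions, the span between the highest and the lowest ratio of a gene had a median of 0.29. In 53 of them the regions lay on both sides of the median of all regions. Of all flanking regions 50.1% lay below that median, and the standard deviation of their ratios was 0.35. Whether regions of a gene are more alike than other regions was not tested. The span was at least 1 in 5, which were Ankrd1 (1.25), Rimkla and Zmynd12 (1.15, sharing their regions), Klf10 (1.10) and Fam179a (1.09). The beta-1 adrenergic receptor gene Adrb1 had 9.68 and 7.86 (-0.27) at one region and 8.81 and 4.28 (-0.90) at another. Prkar1a, the gene of a regulatory subunit of protein kinase A, had 15.7 and 8.41 (-0.83) upstream and 9.03 and 8.96 (-0.01) downstream. These genes were named after their values were seen.

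The strongest flanking region of each gene was set beside a promoter region listed for the same gene, which 743 of the 1057 genes had (70.3%, 67.5 to 73.0%). This was the listed region nearest the gene's start with a promoter counted. The promoter counted there could be that of another listed gene. Another 233 genes (22.04%) were listed for no region outside the flanking set. The flanking region was weaker than the promoter region in most, with a median of 9.73 against 13.03 in sham and 6.92 against 8.82 in TAC, and was the stronger one in sham for 163 genes (21.9%). Unlike the flanking regions, these promoter regions could hold a CpG island and have any length. Over all promoter regions without a CpG island and under 8000 bp, the medians were 10.1 in sham and 7.23 in TAC. Over all flanking regions they were 9.65 and 6.79. The ratios were alike on balance, with medians of -0.50 and -0.53 and a median difference of 0.03 (quartiles -0.23 and 0.27). The ratio was lower at the flanking region for 350 genes (47.1%, 43.5 to 50.7%). Across the 743 genes, some of which share regions, the ratios had a Spearman correlation of 0.09 and a Pearson correlation of 0.11, and the sham signals a Spearman correlation of 0.05. Cxcr7 had 15.01 and 8.28 at its promoter region (-0.79) beside 0.28 at its flanking region, and Pltp had 10.4 and 7.34 (-0.45) beside -1.02.

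**Figure D5:**
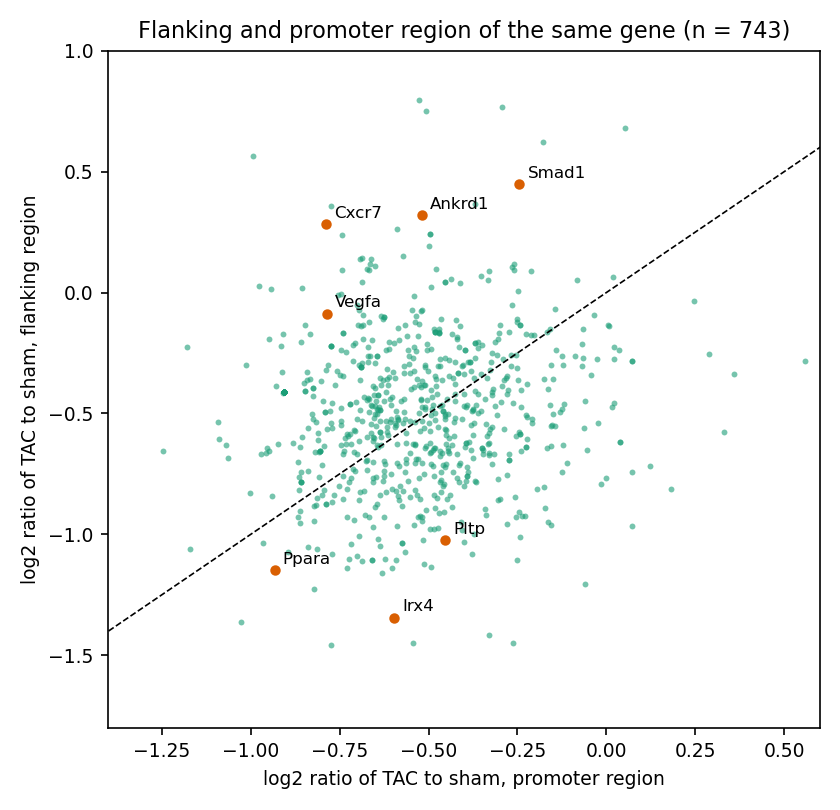
Log2 ratio of TAC to sham at the strongest flanking region (vertical) against that at the promoter region listed for the same gene (horizontal), 1 point for each of 743 genes, with the dashed line at equal ratios. The points form a cloud around -0.50 and -0.53 with no visible slope, and Ankrd1, Cxcr7 and Smad1 lie above the line while Irx4, Pltp and Ppara lie below it.

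Most regions at either end of the distance range were near the median strength. The 5 farthest listings were those of Sox6 (575897 and 571808 bp), the pair listed for Kirrel3 and St3gal4 (557060 and 551276 bp, with 9.28 and 7.61 and with 12.7 and 8.49) and Rad51b (524867 bp, with 9.60 and 6.50). The second Sox6 region had 9.63 and 5.37. The 5 nearest were those of Rnase1 (3250 bp, with 8.41 and 7.29), Lrrc30 (3630 bp, with 13.9 and 8.14), Cd248 with Tmem151a (3928 bp, with 9.57 and 7.21), Pole with P2rx2 (4014 bp from the start of P2rx2, with 8.38 and 4.18) and the region of LOC101056168 and D130062J21Rik nearer to both starts (3391 bp from the latter, with 9.69 and 6.17). Of these 10 regions only that of Lrrc30 and 1 of the pair at Kirrel3 exceeded 12 in sham. The X chromosome held 3 flanking regions (0.31%), against 1.29% of all regions.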

How the data were processed

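ChIP-seq with an anti-Yap1 antibody gave 1 sham and 1 TAC library. Reads were aligned with BWA and regions called with MACS 1.4.2 on mm10, per the submitters' processing notes. The deposited signal is, per the file headers, the average and the highest value over each region merged from both libraries, with a call mark (1 or 0) for each library. No source used here gives the scaling, the peak threshold or the depth. A region entered the table only through a call in at least 1 library, so values of weak regions depend on that choice.

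Ratios were log2((TAC + 1)/(sham + 1)), with a pseudocount of 1. Intervals are 95% Wilson intervals over regions and leave out variation between mice. Python 3.11.15, pandas 2.3.3, numpy 2.4.6 and scipy 1.17.1 were used, and the ratio and size counts were checked on simulated data. Each gene's promoter region was the one nearest its start among the regions listed for it with a promoter counted. No limit was set on distance, length or CpG islands, and the promoter could be that of another listed gene. RefSeq tables of GRCm38.p6 gave gene spans and start sequences. They are not complete, and sequences of some chromosomes were not used here.

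Named regions were the 10 highest and 10 lowest ratios among flanking regions at or above their median strength, the 6 strongest averages and 4 highest maxima of each library, genes with at least 3 flanking regions, list genes (the rule gave values for up to 4 a list, and further values were added), and the 5 farthest and 5 nearest listings. Other names were chosen after their values were seen. The regions and lists were chosen with earlier results of these data known. Alternatives covered the pseudocount, maximum signal, strength, calls, single-gene regions, autosomes, length, a 2-fold size and quantile normalization. Another pair was added after seeing the data. One gene of the calcium handling and ion channel list counts in that list's totals, but its regions are not reported here.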

Additional observations from a re-analysis of the deposited data

How the results depend on the processing

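No paired analysis was possible because there was 1 library for each operation. The median ratio of flanking regions minus that of all regions was -0.00 and moved little, from -0.01 to 0.03 under 8 other settings. It was 0.11 with only flanking regions called in both libraries and, as an alternative chosen after seeing the data, 0.041 when all regions were restricted alike. A like restriction to stronger regions, also chosen after seeing the data, gave 0.005. The median ratio itself was -0.57 and -0.37 with pseudocounts of 0.5 and 5, -0.42 with regions called in both libraries and -0.017 after quantile normalization. The other alternatives left it between -0.54 and -0.50. The number at least 1.5-fold lower was 141 with a pseudocount of 5, 129 among stronger regions, 101 among those called in both, 65 at 2-fold and 15 after quantile normalization. The number at least 1.5-fold higher was 0 with a pseudocount of 5, among stronger regions, among regions called in both and at 2-fold, 19 by maximum signal and 57 after quantile normalization. Relative to all regions the lower count was 42 and 1 with pseudocounts of 0.5 and 5, 95 by maximum signal, 2 among stronger regions, 1 among those called in both, 2 at 2-fold and 11 after quantile normalization. The higher count was 23 with a pseudocount of 5, 92 by maximum signal, 14 among stronger regions, 22 among those called in both and 13 at 2-fold. The subsets hold fewer regions (319 stronger, 332 called in both), and the cause of the other shifts was not tested. Calls in both libraries were 72.7% among stronger regions. The difference between flanking and promoter region listed for the same gene was 0.071 by maximum signal and 0.092 with regions called in both, and -0.02 with regions listed for 1 gene. By maximum signal the direction turned for LOC101056093 (-0.13), Sparc (-0.14), Trim47 (0.22), Ino80c (-0.21), Pigt (-0.067), Trim56 (-0.25) and both regions of Mt1 (0.30 and 0.11). Depth is unknown, and with 1 library for each operation no difference could be set against variation between mice.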
